A study of Mus musculus with 7 samples.

Results

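Astrocyte identity and reactivity genes were examined in the hippocampus of male CD1 mice as a set of 34 genes, chosen by symbol from the 55416 Ensembl gene identifiers of the count tables. All 34 symbols matched a single identifier each. The set holds 15 genes of astrocyte identity and metabolism, 10 genes of membrane channels, adhesion proteins and transporters, the 3 metallothioneins Mt1, Mt2 and Mt3, and 6 genes of the reactive state. Of these, 33 passed the filter on low counts and were tested, and Lcn2 did not.

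RNA-seq was carried out on 7 hippocampal libraries from age-matched males of this outbred stock. The ONX-0914-treated mice (2 libraries, replicates 1 and 2) received 10 mg/kg of ONX-0914, an inhibitor of the immunoproteasome, into the peritoneal cavity 2 times per week over 2 months. The DMSO-treated mice (2 libraries, replicates 2 and 3) received the vehicle in equal volume on the same schedule, and the control mice (3 libraries, replicates 1 to 3) were not injected. The sources do not say which mice were sequenced or whether any library was pooled, so that p-values measure the spread between these libraries only.

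Astrocytes are the glial cells that surround synapses and blood vessels. They clear glutamate and GABA, buffer potassium, form a network through gap junctions and meet the vessel wall with endfeet rich in the water channel Aqp4. After injury or under inflammatory cytokines they become reactive: the intermediate filament genes Gfap and Vim and secreted proteins such as Serpina3n and Lcn2 are typically induced, in part through receptors that share the gp130 chain and act on STAT3. Metallothioneins are small cysteine-rich proteins that bind zinc and copper, and the transcription factor MTF1 induces Mt1 and Mt2 through metal response elements. Several genes of the set are also expressed by other cells, for example Cst3 by microglia, Vim by endothelium and Lcn2 by neutrophils.

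The promoters of the metallothioneins and of Gfap are shown because these genes differed in direction between the ONX-0914 libraries or lay lowest in them. The sequences are those of RefSeq on GRCm38.p6, from 250 bases before to 50 bases after the table's gene start. Mt1 (chr8:94178839-94179138), Mt2 (chr8:94172368-94172667) and Mt3 (chr8:94152357-94152656) lie on the plus strand and Gfap (chr11:102897151-102897450) on the minus strand. Capitals mark, in the metallothioneins, the core of the metal response element, TGCACNC or TGCGCNC on either strand, and in Gfap the palindrome TTCNNNGAA to which STAT factors bind.
Mt1: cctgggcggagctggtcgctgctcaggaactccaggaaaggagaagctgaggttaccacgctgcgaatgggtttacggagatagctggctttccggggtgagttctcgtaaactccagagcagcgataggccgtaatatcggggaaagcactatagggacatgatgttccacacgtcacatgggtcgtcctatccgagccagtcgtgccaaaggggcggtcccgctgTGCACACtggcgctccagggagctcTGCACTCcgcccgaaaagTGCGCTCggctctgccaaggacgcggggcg
Mt2: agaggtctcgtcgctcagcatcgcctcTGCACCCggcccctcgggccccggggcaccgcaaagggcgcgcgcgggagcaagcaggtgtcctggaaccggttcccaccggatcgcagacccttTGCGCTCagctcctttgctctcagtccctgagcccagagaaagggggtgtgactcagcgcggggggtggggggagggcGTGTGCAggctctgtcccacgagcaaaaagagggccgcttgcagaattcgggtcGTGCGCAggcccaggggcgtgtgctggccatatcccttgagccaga
Mt3: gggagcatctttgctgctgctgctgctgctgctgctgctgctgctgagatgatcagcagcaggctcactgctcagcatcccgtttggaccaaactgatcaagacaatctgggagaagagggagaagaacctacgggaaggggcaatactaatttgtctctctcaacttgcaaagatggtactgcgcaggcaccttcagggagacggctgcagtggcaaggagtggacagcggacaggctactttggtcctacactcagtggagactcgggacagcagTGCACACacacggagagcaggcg
Gfap: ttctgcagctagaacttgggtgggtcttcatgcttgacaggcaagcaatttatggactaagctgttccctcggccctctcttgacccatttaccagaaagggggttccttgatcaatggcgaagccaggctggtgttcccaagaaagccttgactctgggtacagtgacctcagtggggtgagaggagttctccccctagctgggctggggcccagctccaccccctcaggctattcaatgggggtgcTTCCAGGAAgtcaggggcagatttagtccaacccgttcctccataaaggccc
The metal core occurred 3 times in the Mt1 window, 4 times in that of Mt2 and 1 time in that of Mt3. Among all 32851 promoters of the table, 25.7% held it at least 1 time and 7.11% at least 2 times. The STAT palindrome occurred 1 time in the Gfap window and in 8.3% of all promoters. Of the 34 genes, 30 matched the table with 35 promoters, and 11 held the metal core and 4 the STAT palindrome (Aldoc, Ntsr2, Acsbg1 and Gfap). Sox9, Clu, Aqp4 and Atp1b2 had no entry.

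The total count on genes was between 2842675 and 3877006 in 6 libraries and 13782270 in ONX-0914 replicate 2. The 34 genes took 0.714% to 0.933% of it. Both ONX-0914 libraries stood apart from the others. In ONX-0914 replicate 1, a list of thalamus and midbrain genes summed to 1226 CPM (normalised read counts, scaled to a common library size) against 132.8 to 144.8 in the control libraries, with 10 of 10 genes above all of these. The striatum list summed to 1177.6 CPM there against 170.5 to 201.1, and the list of hippocampal neurons to 219.97 against 869.4 to 912.7, with 8 of 8 genes above and 8 of 8 below. The hippocampal neuron list was also lower in ONX-0914 replicate 2, at 689.6 CPM, with 5 of its genes below and 3 above all control libraries. In ONX-0914 replicate 2, hemoglobin and other blood genes summed to 837 CPM against 30.02 to 40.08, and mitochondrially encoded genes took 3.71% of the counts against 0.818% to 1.59% in the other 6 libraries. The part of these differences in the values below was not tested. Results that rest on the ONX-0914 libraries are therefore mostly given per library, and for several genes also with each of these libraries left out.

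In the control hippocampus, the set spanned a wide range of abundance. Exon length was that of all annotated exons of a gene merged, so the order of genes depends in part on the annotation. Per kilobase of exon, the mean CPM was highest for Cst3, which encodes the secreted protease inhibitor cystatin C, at 866 ± 61.1 (SD, n = 3). Next came Aldoc (aldolase C, 351 ± 18.2) and Ndrg2 (306 ± 22.97). Gfap followed at 254 ± 70.7 and Mt3 at 212 ± 69.9, a difference smaller than the spread between the control libraries of either gene. The general astrocyte marker Aldh1l1 reached 16.9 ± 2.05 and Aqp4 reached 20.2 ± 2.30. The lowest were the hyaluronan receptor gene Cd44 (0.317 ± 0.0515), the oncostatin M receptor gene Osmr (0.171 ± 0.130) and Lcn2 (0.1496 ± 0.0528). Hence, genes of the resting astrocyte and Gfap stood at the top of the order, and 3 of the 6 reactive genes were at its bottom.

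**Figure D1:**
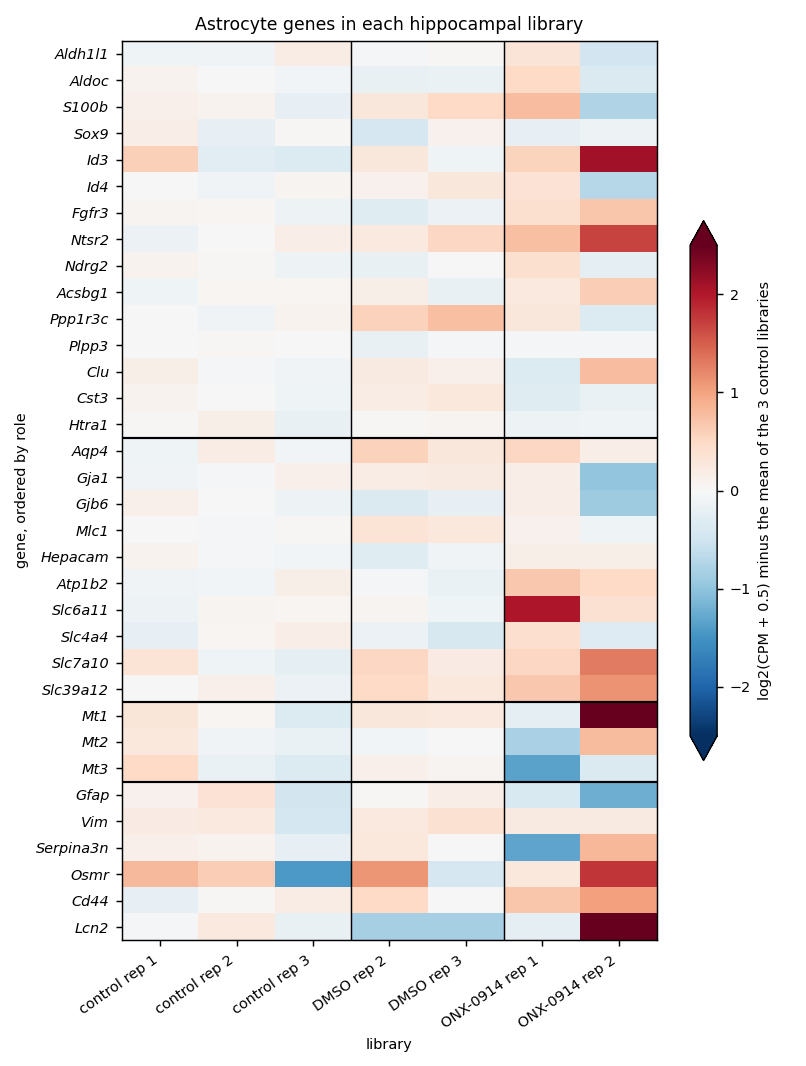
Each row is 1 of the 34 astrocyte genes and each column 1 library. Colour gives log2(CPM + 0.5) minus the mean of the 3 control libraries, black lines divide the 4 roles and the 3 groups, and Mt1 and Lcn2 in ONX-0914 replicate 2 exceed the colour scale. The control and DMSO columns are pale for most genes, while the ONX-0914 columns differ from each other in many rows.

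ONX-0914-treated mice were first compared with control mice. The control mice were not injected, so drug, vehicle and injections cannot be told apart in this comparison. None of the 33 genes tested was a DEG (FDR under 0.05, edgeR's quasi-likelihood test), where 0.114% of all 13152 genes tested were. DESeq2 called 2 genes, Ntsr2 and Slc6a11, against 2.6% of all genes it tested, and limma voom called 0 genes. At an unadjusted p under 0.05, edgeR gave 12 of 33 genes, 10 of them higher and 2 lower, against 18.6% of all genes tested. The median Log2FC of the set was 0.15 and that of all genes 0.05. Both ONX-0914 libraries lay above all control libraries for 9 genes (16.9% of all genes did so) and below them for 3 genes (16.3% of all genes). Because hippocampal tissue was sequenced in bulk, a change in the number of astrocytes and a change in RNA per astrocyte cannot be told apart.

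The 9 genes above were the receptors Fgfr3 and Ntsr2, the acyl-CoA synthetase gene Acsbg1, the adhesion and pump genes Hepacam and Atp1b2, the transporters Slc6a11, Slc7a10 and Slc39a12, and Cd44. Ntsr2, the neurotensin receptor of astrocytes, had the lowest FDR of the set. Its level was 37.4, 41.2 and 46.5 CPM in the control libraries, 49.6 and 60.0 in the DMSO libraries and 69.97 and 134.9 in ONX-0914 replicates 1 and 2. The ONX-0914 libraries were the highest of all 7, and the DMSO libraries also lay above the control libraries. The Log2FC of ONX-0914 against control was 1.30 (SE 0.273, FDR = 0.0947). Leaving out replicate 1 of this group gave 1.67, and leaving out replicate 2 gave 0.74. Slc39a12 encodes a zinc importer of astrocytes, and its values were chosen for display after they were seen. It had 27.8, 29.99 and 24.8 CPM in control, 38.9 and 32.8 in DMSO and 44.0 and 60.3 in the ONX-0914 libraries. The order of the groups was that of Ntsr2, with no overlap between any pair of them. The Log2FC against control was 0.93 (SE 0.206, FDR = 0.105), and it stayed positive without ONX-0914 replicate 1 (1.12) or 2 (0.67).

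Slc6a11, the GABA transporter GAT3 of astrocytes, had 92.0, 105 and 104 CPM in control, 105 and 93.2 in DMSO, and 407 and 130.1 in ONX-0914 replicates 1 and 2. Replicate 1 was at 4.05 times and replicate 2 at 1.29 times the control mean, so that the difference was mainly that of 1 library. The Log2FC was 1.41 (SE 0.391, FDR = 0.144) with both libraries, 0.36 without replicate 1 and 2.01 without replicate 2. Slc6a11 is among the genes that the study displayed from these same libraries, so its direction here is no independent evidence. GAT3 is known to be abundant in thalamus and brain stem, and the thalamus and midbrain list moved with it in replicate 1 at 8.82 times the control mean. The part of that list in the value of Slc6a11 was not tested.

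Atp1b2, the glial beta subunit of the sodium pump, had 341, 345 and 399 CPM in control, 353 and 320.2 in DMSO, and 577 and 507 in the ONX-0914 libraries, both above the other 5. The Log2FC was 0.58 (SE 0.171, FDR = 0.157) with both libraries, 0.48 without replicate 1 and 0.67 without replicate 2. Fgfr3, a receptor for fibroblast growth factors, had 73.8, 72.8 and 63.9 CPM in control, 56.6 and 62.8 in DMSO, and 92.6 and 114.3 in ONX-0914. These libraries were again the highest of all. The Log2FC was 0.56 (SE 0.172, FDR = 0.165), and 0.70 and 0.40 without replicates 1 and 2. Atp1b2 and Fgfr3 were chosen for display after their values were seen. Slc7a10 (Asc-1), which exchanges D-serine and other small amino acids, had 11.4, 8.18 and 7.44 CPM in control, 12.9 and 10.4 in DMSO, and 12.8 and 22.6 in ONX-0914. The first ONX-0914 value lay between those of the DMSO libraries, and the Log2FC against control was 1.02 (SE 0.319, FDR = 0.17). That first value came from 51 reads. Its exact 95% Poisson limits for counting error (9.56 to 16.9 CPM) overlapped those of every control library.

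Cd44 was sparse, with 5, 8 and 9 reads in control, 12 and 6 in DMSO, and 15 and 74 in ONX-0914, or 3.78 and 4.89 CPM in the latter against 1.78 to 2.48 in control. Its counting intervals overlapped between replicate 1 (2.11 to 6.23 CPM) and every control library, such as control replicate 3 (1.13 to 4.70 CPM, exact 95% Poisson limits for counting error only). The Log2FC was 1.03 (SE 0.398, FDR = 0.228). Acsbg1 had a mean of 159 ± 29.3 CPM (SD, n = 2) against 117 ± 7.36 (SD, n = 3), with a Log2FC of 0.44 (SE 0.187). Hepacam, a cell adhesion molecule that binds Mlc1, differed least of the 9, with 98.2 and 98.3 CPM against 84.8 to 94.8 in control and a Log2FC of 0.15 (SE 0.158).

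The 3 genes below all control libraries were Mt3, Cst3 and Plpp3. Cst3 had 892 and 978 CPM in ONX-0914 replicates 1 and 2 against 1016 to 1169.8 in control, with a Log2FC of -0.23 (SE 0.188). Plpp3, a lipid phosphate phosphatase, had 289 and 290.0 CPM against 295 to 302, which is a Log2FC of -0.04 (SE 0.153), or 0.10 with libraries scaled by total counts. The absence of overlap in Plpp3 thus came with almost equal levels.

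**Figure D2:**
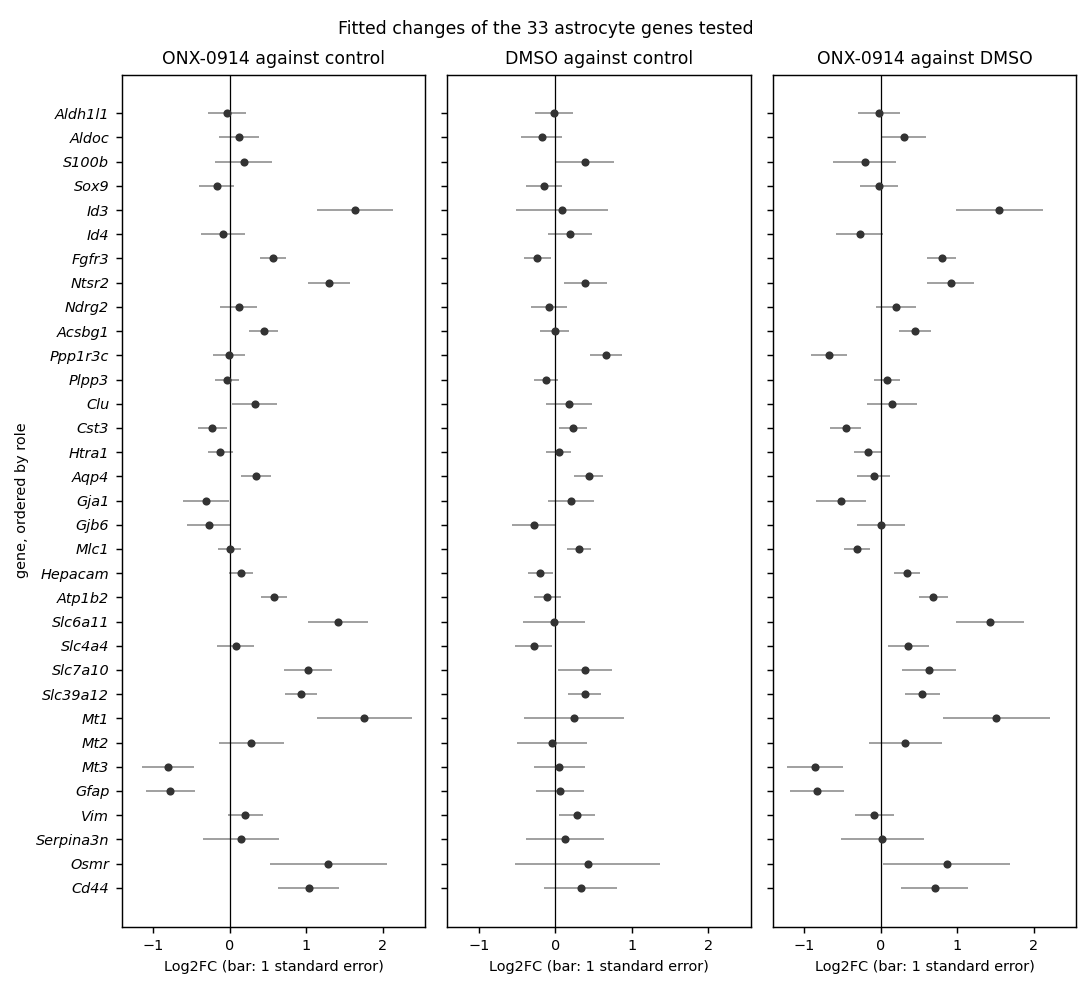
Points are the Log2FC of the 33 astrocyte genes tested in the edgeR fit and bars are 1 standard error, for ONX-0914 against control, DMSO against control and ONX-0914 against DMSO. Id3, Ntsr2, Slc6a11, Mt1 and Cd44 lie furthest to the right in the first panel, at 1.03 to 1.76 together with Osmr at 1.29, and Mt3 and Gfap furthest to the left, at -0.81 and -0.78.

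Gfap, the filament protein used most often to mark reactive astrocytes, was among the most abundant genes of the set and was not higher in the ONX-0914 libraries. It had 1118, 1344 and 753 CPM in control replicates 1 to 3, 1064 and 1170.5 in DMSO, and 803 and 449 in ONX-0914 replicates 1 and 2. Replicate 2 was the lowest of all libraries, while replicate 1 lay within the control range. The Log2FC was -0.78 (SE 0.325, FDR = 0.254), or -1.26 and -0.42 without replicates 1 and 2. Vim was at 44.8 and 44.9 CPM in ONX-0914 against 28.1 to 45.3 in control.

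The other reactive genes differed between the ONX-0914 libraries. Serpina3n, a secreted serpin that belongs to a family of close paralogs, had 53.1, 51.8 and 41.9 CPM in control, 58.2 and 48.5 in DMSO, and 19.1 and 87.2 in ONX-0914. The first ONX-0914 library was the lowest and the second the highest of all 7, a 4.56-fold difference within 1 group, and the fitted Log2FC of 0.15 (SE 0.495) describes neither. Reads of Serpina3n may be split with its paralogs. Osmr had 9, 10 and 1 reads in control, 15 and 3 in DMSO, and 8 and 102 in ONX-0914, which is 2.01 and 6.74 CPM in the latter against 0.275 to 3.21 in control. Replicate 2 was the highest library, and replicate 1 lay within the control range (Log2FC 1.29, SE 0.766, FDR = 0.388).

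Lcn2, which encodes the iron-siderophore binding protein lipocalin 2, had 1, 2 and 1 reads in the control libraries, 0 and 0 in DMSO, and 1 and 110 in ONX-0914 replicates 1 and 2. It was thus near the detection limit in 6 libraries and well above it in 1. The rate in ONX-0914 replicate 2 was 18.4 times that of the pooled control libraries (95% counting interval 6.97 to 68.6) and 29.96 times that of the other 6 libraries (12.5 to 94.1). The count of 0 allows up to 0.99 and 1.32 CPM in the DMSO libraries, against 7.27 CPM in ONX-0914 replicate 2. Lcn2 was removed by the filter on low counts, and without the filter it was called by edgeR against control (Log2FC 3.52, FDR = 0.0235), a value that rests on replicate 2. The blood list, which was at 24.6 times the control mean in the same library, moved with Lcn2, Serpina3n and Osmr, and its part in these values was not tested. Serpina3n and Lcn2 were chosen for display after their values were seen.

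The metallothioneins differed from each other in direction. Mt1 had 40.3, 33.8 and 25.6 CPM in control, 39.7 and 38.9 in DMSO, and 27.7 and 194 in ONX-0914 replicates 1 and 2. Replicate 1 lay within the control range, and replicate 2 was at 5.83 times the control mean. The Log2FC of 1.76 (SE 0.621, FDR = 0.202) was the highest of the set, but it became 2.55 without replicate 1 and -0.25 without replicate 2. Mt2, whose window holds the most metal cores of those printed, had 15.3, 11.997 and 11.3 CPM in control and 12.1 and 12.9 in DMSO. In ONX-0914 it had 7.05 and 22.5 CPM, the lowest and the highest of all libraries (Log2FC 0.28, SE 0.424). Mt3, the brain form, had 311, 195 and 172 CPM in control, 239 and 229.9 in DMSO, and 86.6 and 169.97 in ONX-0914. Both ONX-0914 values were below all others, although replicate 2 lay close to control replicate 3, and the Log2FC was -0.81 (SE 0.339, FDR = 0.254). Without replicate 1 it was -0.41, and without replicate 2 it was -1.38. Thus, in ONX-0914 replicate 2 Mt1 and Mt2 were high and Mt3 was low, and in replicate 1 all were within or below the control range.

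**Figure D3:**
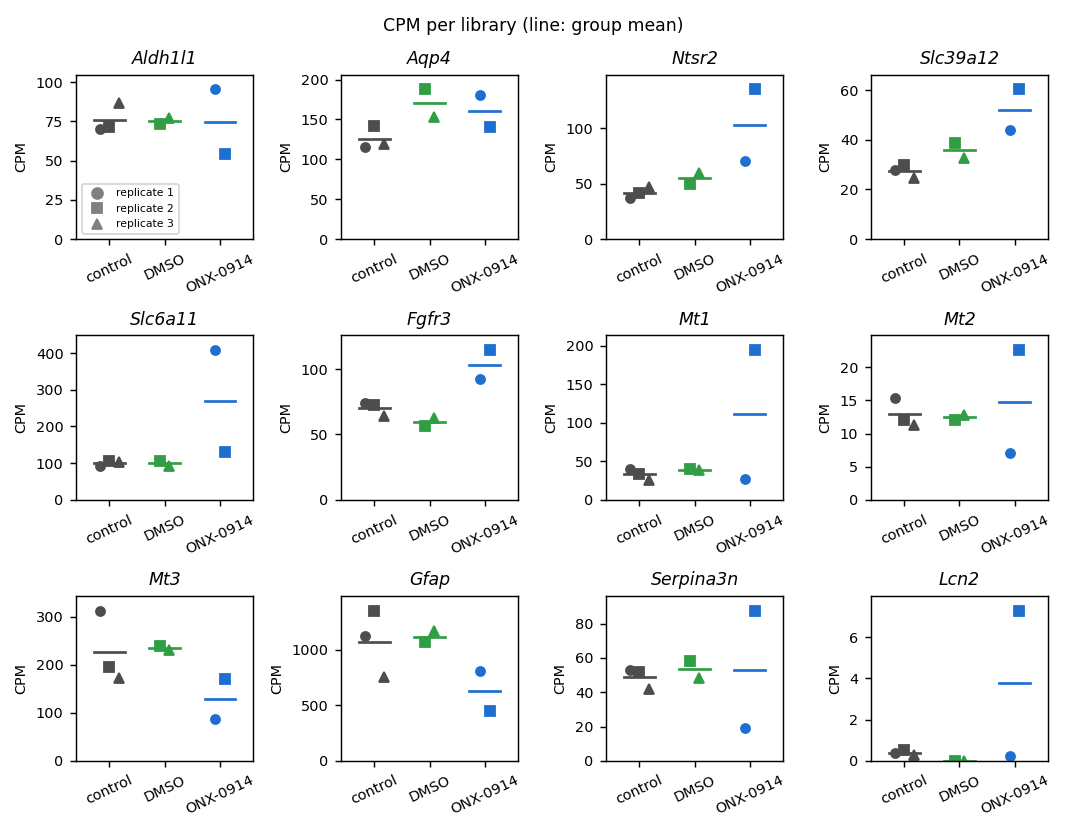
CPM of 12 astrocyte genes in each library, on linear axes that start at 0, with 1 point per library, marker shape for the replicate number and a line at the group mean. The ONX-0914 points of Ntsr2, Slc39a12 and Fgfr3 lie above all control points, those of Mt1, Serpina3n and Lcn2 are far apart from each other (27.7 against 194 CPM for Mt1), and the lowest Gfap point is ONX-0914 replicate 2 at 449 CPM.

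Among the identity and membrane genes, the ONX-0914 libraries also differed in another way. For 10 of 33 genes, 6 of the identity role and 4 of the membrane role, replicate 1 lay above and replicate 2 below all control libraries, against 12.6% of all genes tested. These were Aldh1l1, Aldoc, S100b, Id4, Ndrg2, Ppp1r3c, Gja1, Gjb6, Mlc1 and the bicarbonate transporter Slc4a4. The reverse order held for 3 of 33 genes (Clu, Mt2 and Serpina3n), against 10.8% of all genes. S100b, a calcium-binding protein, had 165, 159 and 130.3 CPM in control, 184 and 213 in DMSO, and 256 and 88.9 in ONX-0914. Its ONX-0914 libraries were the highest and the lowest of all 7, and the Log2FC against control was 0.18 (SE 0.378). Aldh1l1, the folate enzyme that serves as a general marker of astrocytes, had 69.9, 71.7 and 86.7 CPM in control, 73.2 and 77.5 in DMSO, and 95.4 and 54.2 in ONX-0914. The group means were 76.1 ± 9.26, 75.4 ± 2.98 and 74.8 ± 29.1 (SD, n = 3, 2 and 2), and the Log2FC was -0.04 (SE 0.249, FDR = 0.951). Equal means thus covered a 1.76-fold difference between the ONX-0914 libraries.

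The connexin genes Gja1 and Gjb6, whose products form the gap junctions between astrocytes, followed the same pattern. Gja1 had 379 and 171 CPM in ONX-0914 replicates 1 and 2 against 318 to 368 in control, and Gjb6 had 148 and 71.2 against 121 to 144. Replicate 2 was at 0.504 and 0.538 times the control means. The glycolytic gene Aldoc had 1606 and 891 CPM against 1092 to 1209, and Ndrg2 had 1380 and 876 against 955 to 1108. Id4, an inhibitor of differentiation, had 149 and 71.0 CPM against 109 to 122, whereas its relative Id3 went the other way. Id3 had 7.84, 4.09 and 3.86 CPM in control, 6.17 and 4.64 in DMSO, and 7.55 and 23.1 in ONX-0914. The difference of Id3 from control was mainly that of replicate 2 (4.38 times the control mean), and the Log2FC of 1.64 (SE 0.5, FDR = 0.165) became 0.57 without it.

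Over the 33 genes, 11 differed more than 2-fold between the ONX-0914 libraries, against 24.7% of all genes tested. Between the control libraries 0 or 1 did so, and between the DMSO libraries 1 did. The median fold between the ONX-0914 libraries was 1.73 for the set and 1.48 for all genes, while it was 1.09 to 1.17 for the set in the control pairs. The widest gaps were those of Lcn2 (28.9-fold), Mt1 (6.998-fold), Serpina3n (4.56-fold), Osmr (3.35-fold), Mt2 (3.20-fold), Slc6a11 (3.13-fold) and Id3 (3.05-fold). Plpp3, Hepacam, Vim and Htra1, a secreted protease, lay within 1.01-fold, and the transcription factor gene Sox9 within 1.05-fold (26.7 and 27.95 CPM).

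The calls depended on which ONX-0914 library was kept. Without ONX-0914 replicate 1, edgeR called 24 of 34 genes (15 higher and 9 lower), against 51.2% of all genes tested. Without ONX-0914 replicate 2, it called 11 of 33 genes (9 higher and 2 lower), against 19% of all genes. In both fits the remaining ONX-0914 library was assumed to vary like the other groups, and so these calls compare single libraries with control. Atp1b2, Ntsr2, Slc39a12 and Slc6a11 were called higher in both. Aldoc, S100b and Slc4a4 were called lower in the first and higher in the second, and Serpina3n was called higher in the first and lower in the second.

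**Figure D4:**
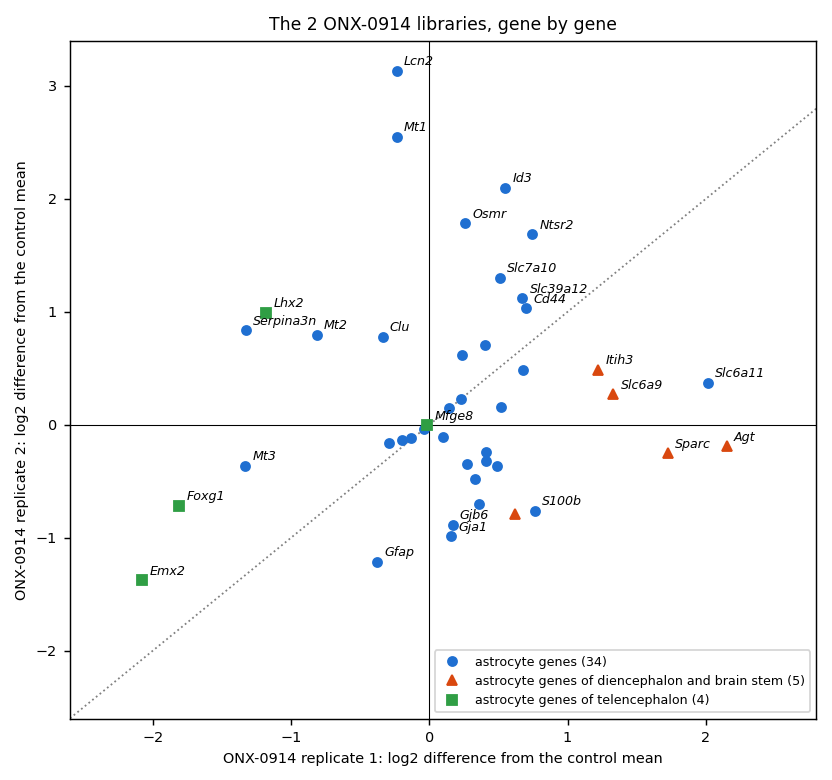
Each point is a gene, placed by its log2 difference from the control mean, of log2(CPM + 0.5), in ONX-0914 replicate 1 (horizontal) and replicate 2 (vertical). The dotted line marks equal values, blue circles are the 34 astrocyte genes, orange triangles 5 astrocyte genes of diencephalon and brain stem and green squares 4 of telencephalon. Mt1 and Lcn2 lie high on the vertical axis near 0 on the horizontal one, Slc6a11 lies at 4.05 times the control mean to the right beside Agt and Sparc, and S100b, Gja1 and Gjb6 lie at the lower right.

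Vehicle injection was compared with no injection through the same control libraries. None of the 33 genes was a DEG by edgeR, against 0.0152% of all genes, and none by DESeq2, against 0.0186%, or by limma voom. At an unadjusted p under 0.05 there was 1 gene, Ppp1r3c, against 2.65% of all genes, and the median Log2FC of the set was 0.09. Ppp1r3c, a glycogen-targeting subunit of protein phosphatase 1, had 73.1, 68.7 and 77.4 CPM in control, 109 and 122 in DMSO, and 88.3 and 57.4 in ONX-0914. Both DMSO libraries were the highest of all. The Log2FC of DMSO against control was 0.66 (SE 0.209, FDR = 1.0), and with the control and DMSO libraries fitted alone the FDR was 0.0049. Aqp4 had 116, 142 and 119.5 CPM in control, 188 and 153 in DMSO, and 180.2 and 139.9 in ONX-0914. Its DMSO libraries were above all control libraries and ONX-0914 replicate 2 lay within them (Log2FC of DMSO against control 0.44, SE 0.193, FDR = 1.0). In all, both DMSO libraries lay above the control libraries for 9 genes, against 15.7% of all genes, and below them for 5, against 15%. Those above were S100b, Id4, Ntsr2, Ppp1r3c, Cst3, Aqp4, Gja1, Mlc1 and Slc39a12, and those below Aldoc, Fgfr3, Plpp3, Gjb6 and Hepacam. Gfap, Mt1, Mt2 and Mt3 overlapped between these groups, with Log2FC of 0.06, 0.25, -0.04 and 0.05.

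ONX-0914 was also compared with its vehicle, which shares the ONX-0914 libraries with the first comparison and the DMSO libraries with the second. None of the 33 genes was a DEG by edgeR (0.0456% of all genes) or by DESeq2 (1.7% of all genes), and none by limma voom. An unadjusted p under 0.05 was reached by 9 genes, 6 higher and 3 lower, against 14.7% of all genes, and the median Log2FC was 0.15. Both ONX-0914 libraries lay above the DMSO libraries for 10 genes (20.8% of all genes) and below them for 8 (19.7%). The lowest FDR was that of Fgfr3, with a Log2FC of 0.80 (SE 0.192, FDR = 0.171), since its DMSO libraries lay below control. Atp1b2 had a Log2FC of 0.69 (SE 0.191), Slc6a11 of 1.43 (SE 0.443) and Id3 of 1.55 (SE 0.567). Without ONX-0914 replicate 1 these were 0.58, 0.38 and 2.05, and without replicate 2 they were 0.77, 2.03 and 0.45. For Ntsr2 the Log2FC was 0.91 (SE 0.305) against DMSO beside 1.30 against control, and for Slc39a12 it was 0.54 (SE 0.228) beside 0.93. Against DMSO, Ntsr2 was at 1.30 and 0.36 and Slc39a12 at 0.73 and 0.28 without ONX-0914 replicates 1 and 2. Gfap (-0.84, SE 0.351), Mt3 (-0.86, SE 0.366) and Ppp1r3c (-0.68, SE 0.231) were the 3 lower genes. Gfap thus lay at 803 and 449 CPM below both DMSO libraries (1064 and 1170.5 CPM) but not below all control libraries.

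Further genes of astrocytes were described as lists in the same fit, and none of their genes was a DEG in any of the comparisons. Of 25 further astrocyte genes, 3 had an unadjusted p under 0.05 against control, all higher in ONX-0914, against 18.6% of all genes tested, a larger share. The median Log2FC of this list was 0.22. The highest was that of Etnppl, an astrocytic enzyme of phospholipid breakdown, with 54.6 CPM in ONX-0914 replicate 1 and 0.714 to 5.73 CPM in the other 6 libraries (Log2FC 2.59, SE 0.93). The lowest was Mertk, a phagocytic receptor (-0.38, SE 0.341). Among genes that astrocytes induce under any stimulus, 4 of 7 were tested and 0 had an unadjusted p under 0.05, with Log2FC from 0.06 (Aspg) to 0.65 (Hspb1). Of those tied to inflammation, 10 of 11 were tested, with 1 higher and 1 lower at that p, against the same 18.6% of all genes. Their extremes were Srgn (1.49, SE 0.677), which granule-bearing blood cells also express, and complement C3 (-0.997, SE 0.57). Srgn had 1.26 and 7.40 CPM in ONX-0914 replicates 1 and 2 against 1.07 to 2.20 in control, so its value rests on replicate 2. Of those tied to ischaemia, 5 of 12 were tested and 1 was lower at that p (18.6% of all genes), Cd109 (-1.47, SE 0.384), while Emp1 was highest at 0.85 (SE 0.488).

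Among 10 tested genes of gp130 and STAT3 signalling, 3 were higher and 1 was lower at an unadjusted p under 0.05, where 18.6% of all genes reached that p (1389 higher and 1058 lower of 13152). The interleukin 6 receptor gene Il6ra was highest (0.93, SE 0.372) and the kinase gene Jak1 lowest (-0.46, SE 0.175). Of the 10 genes of zinc transport and metallothionein regulation, 1 was higher and 2 were lower, against the same share of all genes. The zinc exporter gene Slc30a4 was highest (0.81, SE 0.353), with 78.3 CPM in ONX-0914 replicate 2 and 25.9 to 35.3 CPM elsewhere, and the zinc importer gene Slc39a6 lowest, at 107 and 72.4 CPM in ONX-0914 against 159 to 169 in control (-0.88, SE 0.202, FDR = 0.108).

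Astrocytes differ by brain region, and region lists set the ONX-0914 libraries apart within the astrocyte genes themselves. The list of diencephalon and brain stem astrocytes summed to 1197 CPM in ONX-0914 replicate 1, 328 in replicate 2 and 309 to 444 in control. Its gene with the highest Log2FC was Agt, the angiotensinogen gene, with 63.9 CPM in replicate 1 and 8.92 to 16.9 CPM in the other 6 libraries (1.36, SE 0.617). The list of telencephalon astrocytes summed to 244 and 351 CPM in ONX-0914 against 389 to 416 in control. Emx2, a transcription factor gene of the dorsal telencephalon, had 47.1, 44.2 and 44.1 CPM in control, 43.7 and 46.4 in DMSO, and 10.3 and 17.05 in ONX-0914. Its Log2FC was -1.68 (SE 0.24, FDR = 0.051), just above the threshold. Lhx2 was highest of that list (0.32, SE 0.49), with 14.1 and 65.2 CPM in replicates 1 and 2 against 32.1 to 33.3 in control. The part of the regional lists in the values of the 34 genes was not tested.

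**Figure D5:**
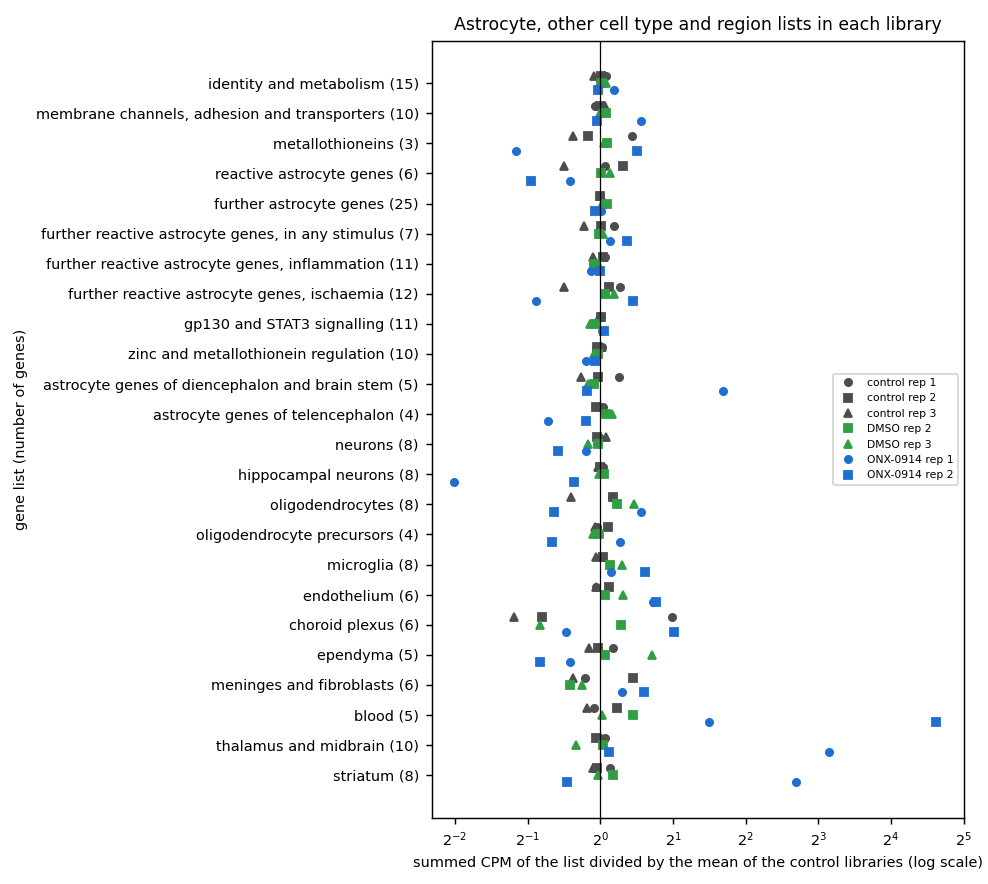
Summed CPM of each gene list in each library, divided by the mean of the 3 control libraries, on a log axis, with 1 row per list and the number of its genes in parentheses. ONX-0914 replicate 1 stands out in the thalamus and midbrain (8.82), striatum (6.44), hippocampal neuron (0.248) and diencephalon astrocyte (3.22) rows and ONX-0914 replicate 2 in the blood row (24.6), while the summed astrocyte identity genes lie at 1.14 and 0.974. In the hippocampal neuron row, ONX-0914 replicate 2 lies at 0.776.

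As summed levels, the identity genes stood at 5676 and 4845 CPM in the ONX-0914 libraries against 4694 to 5235 in control, and the membrane genes at 2380.2 and 1570.3 against 1546 to 1699. The membrane genes were above all control libraries for 10 of 10 genes in ONX-0914 replicate 1, where 36.8% of all genes were, and for 5 of 10 in replicate 2, where 40% of all genes were. The metallothioneins summed to 121 and 386 CPM against 209 to 367, and the reactive genes to 873 and 600.4 against 826 to 1447, of which Gfap was the largest share. Other cell types moved in the same libraries. The endothelium list was at 279.6 and 288 CPM against 161 to 183 in control, with 5 and 6 of 6 genes above, and the microglia list at 316 and 438 against 274 to 292. The oligodendrocyte list was at 10300 and 4497 CPM against 5269 to 7902, above in replicate 1 and below in replicate 2, as the 10 astrocyte genes led by S100b were. The neuron list was lower in both, at 8601 and 6606 CPM against 9547 to 10401. The ependyma list was at 19.6 and 14.8 CPM against 23.4 to 29.6, and the lists of choroid plexus (69.5 and 194 against 42.4 to 191) and meninges (20.4 and 25.05 against 12.7 to 22.6) overlapped control or lay at its upper limit. The oligodendrocyte precursor list was at 259 and 135 CPM against 204 to 231. In the DMSO libraries, the same lists lay between 0.563 and 1.63 times the control mean. The part of these cell types in the values of the astrocyte genes was not tested.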

How the data were processed

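Total RNA of hippocampus was made into directional libraries and sequenced single-end. The authors deposited whole-number read counts per Ensembl gene identifier for each library, without normalization, and the submitters' processing notes name Trimmomatic 0.39, STAR 2.7.3a, featureCounts 2.00 and the build GRCm39. The annotation release and the strand setting of the counting are not given in the sources used here, so reads of overlapping or antisense genes and of close paralogs are uncertain. Reads that the summary lines give as unassigned (no feature or ambiguous) stayed out of library sizes and tests. Symbols and exon lengths came from GENCODE M21, where 52083 of the 55416 identifiers, with 99.821% of all counts, had an entry. It is of another build than the files, so no coordinates of the counted genes are given, and promoters come from the RefSeq table on its own build.

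The fit used edgeR 4.0.16 under R 4.3.3: filterByExpr over the 3 groups, TMM, and glmQLFit and glmQLFTest with 1 mean per group over all 7 libraries, Benjamini–Hochberg adjustment over 13152 genes and a threshold of 0.05. The prior count behind each Log2FC was 0.125, and its standard error was derived from the F statistic. CPM values use TMM-scaled library sizes. The steps were tested on simulated data. Alternatives included DESeq2 1.42.0 and limma 3.58.1 (voom). The members and lists were chosen with earlier results of these data known, so lists are described by counts and medians and not tested. All members were named, with values per library for those with an FDR under 0.1, the 6 largest changes of each comparison, Gfap, Aqp4, Aldh1l1 and the metallothioneins, and of each further list the genes with the highest and the lowest Log2FC. Values per library of other members were chosen after they were seen. Replicate numbers were not used to pair the libraries in the main fit. The correlations of deviations between libraries with the same number were -0.0963 to 0.064. In a group of 2 libraries the deviations mirror each other, so these values cannot decide whether the numbers pair the libraries.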

Additional observations from a re-analysis of the deposited data

How the results depend on the processing

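With 2 ONX-0914 and 2 DMSO libraries, the fits turn on single libraries. Against control, the number of astrocyte genes called (0) became 6 when genes of low count were kept and 2 under DESeq2, and ranged from 0 to 24 when each library was left out in turn, with 24 genes without ONX-0914 replicate 1 and 11 without replicate 2. For ONX-0914 against DMSO it became 2 with those genes kept and ranged from 0 to 23 when libraries were left out (23 and 11 without ONX-0914 replicates 1 and 2). For DMSO against control it became 1, Ppp1r3c, with these groups fitted alone, and ranged from 0 to 1 when libraries were left out. Genes outside the set were called in these alternatives as well. With low counts kept, 578 of all 26822 genes were called for ONX-0914 against control and 297 for ONX-0914 against DMSO. With DMSO and control fitted alone, 141 of all 12688 genes were called. The counts without 1 of the ONX-0914 libraries rest on the remaining library of that group. With total counts, the median Log2FC of the astrocyte genes was 0.298 for ONX-0914 against control (0.151 as reported). It was 0.299 for ONX-0914 against DMSO (0.15 as reported). For ONX-0914 against control, this scaling moved the median of all genes from 0.0459 to 0.189. With the replicate block, which called 0 of these genes in each comparison, the medians were 0.0486 and 0.0601. When libraries were left out, the median ranged from 0.0907 to 0.233 for ONX-0914 against control, from 0.0226 to 0.189 for DMSO against control and from 0.0465 to 0.243 for ONX-0914 against DMSO. The Log2FC of Mt1 against control ranged from -0.25 without ONX-0914 replicate 2 to 2.55 without ONX-0914 replicate 1. In the other alternatives, counts of calls did not change. Medians moved less than the spread between libraries of the same group (SD 0.0796, pooled over the 3 groups). Sign changes numbered 32 of 625 values (16 genes) for ONX-0914 against control, over 19 alternatives. They numbered 31 of 624 (14 genes) for DMSO against control and 37 of 625 (15 genes) for ONX-0914 against DMSO. All were counted, whether or not the value was called in the alternative. S100b against control, for example, was 0.18 as reported and -0.78 without ONX-0914 replicate 1. The cause of these differences was not tested beyond which library was left out. Depth limits Lcn2, Osmr, Cd44, Id3 and Mt2, which had under 50 reads in each of 6 libraries. It also limits Slc7a10, which had 27 to 51 reads in the same 6 libraries.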
